A study of Homo sapiens with 2 samples.

Results

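Gluconeogenesis and glycogen enzymes were examined in KYN2 cells as 10 genes, PC, PCK1, PCK2, FBP1, G6PC3, GYS1, GYS2, GBE1, PYGL and PYGB, of 18665 genes named on the array. They were picked by name, and every probe whose platform annotation gives 1 of these symbols was read, which came to 16 of 48802 probes. KYN2 is an established human hepatocellular carcinoma line. The group labelled HSF1 knockdown is a KYN2 line stably transfected with an shRNA plasmid against HSF1 (heat shock factor 1, the transcription factor that drives chaperone genes under protein stress) and kept under puromycin. The group labelled control is KYN2 cells, and the labels do not say what plasmid they carried or whether either line grew from 1 clone. Each group was measured on 1 Illumina HumanWG-6 BeadChip, where bead-bound probes capture biotin-labelled cRNA. The comparison asks how expression changes with HSF1. With 1 array per group there is no replicate check, no test and no p-value for any difference below.

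Gluconeogenesis makes glucose from lactate, amino acids and glycerol, and in the body it is above all a task of the liver in fasting. It runs most steps of glycolysis backwards and bypasses the irreversible ones with enzymes of its own. Pyruvate carboxylase (PC) turns pyruvate into oxaloacetate in mitochondria, the phosphoenolpyruvate carboxykinases (cytosolic PCK1 and mitochondrial PCK2) turn oxaloacetate into phosphoenolpyruvate, fructose bisphosphatase (FBP1) removes a phosphate from fructose bisphosphate, and a glucose phosphatase releases free glucose. Glycogen, the glucose store of liver and muscle, is lengthened by glycogen synthase (GYS1, the widespread form, and GYS2, the liver form) and branched by GBE1. Glycogen phosphorylase (PYGL in liver, PYGB first known from brain) takes it apart.

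The members split in both directions, and the largest differences were opposite in sign and sat on consecutive steps of 1 pathway. PC was 2.63-fold higher and PCK2 was 2.96-fold lower in the sample labelled HSF1 knockdown. G6PC3 and PYGB were higher and PYGL was lower, each by just under 2-fold. GYS1 and GBE1 differed by 0.29 and -0.08 on the log2 scale. PCK1, FBP1 and GYS2 were not detected on either array. A probe was taken as detected when its detection p, which sets its signal against the background of the array, was under 0.01. Differences are knockdown-labelled minus control, in log2 units after background correction and quantile normalization, and a gene is called higher or lower at 2-fold or more when detected on both arrays.

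The promoter windows of the 2 called genes are shown because PC and PCK2 carry the largest differences of the set and their windows differ in which searched motifs they hold. Each window runs from 250 bases before to 50 bases after a transcription start in RefSeq (GRCh38.p14), is written 5′ to 3′ along the gene, and has matches in capitals. PC has 3 annotated starts in that table and PCK2 has 1.
PC start 1, chr11:66958334-66958633 (minus strand): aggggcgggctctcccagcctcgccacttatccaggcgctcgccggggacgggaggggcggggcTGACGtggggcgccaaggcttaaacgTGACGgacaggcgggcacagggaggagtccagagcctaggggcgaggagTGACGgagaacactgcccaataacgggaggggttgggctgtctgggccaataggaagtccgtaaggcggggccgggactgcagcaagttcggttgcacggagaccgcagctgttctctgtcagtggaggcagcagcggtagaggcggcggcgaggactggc
PC start 2, chr11:66907904-66908203 (minus strand): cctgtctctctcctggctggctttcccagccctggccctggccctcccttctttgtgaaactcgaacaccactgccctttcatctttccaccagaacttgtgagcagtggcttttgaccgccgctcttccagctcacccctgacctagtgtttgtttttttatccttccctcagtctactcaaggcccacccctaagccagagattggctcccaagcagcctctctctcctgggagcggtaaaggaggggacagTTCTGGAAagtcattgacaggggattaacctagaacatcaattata
PC start 3, chr11:66905985-66906284 (minus strand): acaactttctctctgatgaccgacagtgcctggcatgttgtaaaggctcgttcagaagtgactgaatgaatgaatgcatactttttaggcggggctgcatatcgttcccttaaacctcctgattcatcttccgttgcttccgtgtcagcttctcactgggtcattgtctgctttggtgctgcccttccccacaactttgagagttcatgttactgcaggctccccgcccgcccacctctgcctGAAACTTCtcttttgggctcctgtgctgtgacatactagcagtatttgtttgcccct
PCK2, chr14:24094061-24094360 (plus strand): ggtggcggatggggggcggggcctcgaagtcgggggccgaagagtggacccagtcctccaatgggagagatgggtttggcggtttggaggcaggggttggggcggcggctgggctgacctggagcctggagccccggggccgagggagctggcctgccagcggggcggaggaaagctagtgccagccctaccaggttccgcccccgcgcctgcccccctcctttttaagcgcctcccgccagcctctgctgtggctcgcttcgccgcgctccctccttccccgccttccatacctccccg
The motifs searched were the paired heat shock units GAANNTTC and TTCNNGAA, each of which reads the same on both strands, and the core of the cAMP response element, TGACG, on either strand. PC start 1 held TGACG at 3 places, beginning at bases -186, -160 and -111 from the start site. PC start 2 held TTCTGGAA beginning at base 5 after the start, and PC start 3 held GAAACTTC beginning at base -7. The PCK2 window held none of these motifs, but PC had 3 windows in which a match could fall and PCK2 had 1. Of all 35116 windows in the table, 6.77% held GAANNTTC, 7.74% held TTCNNGAA and 24.6% held TGACG. Of the 12 windows of the 8 members that have one, 2 held a heat shock pair, 2 held TGACG (PC start 1 and GYS1) and 8 held neither. A match describes the letters in the window and does not show binding. The shares over all windows are for 1 window and 1 motif at a time. Any link of the matches to the differences was not tested. GC content of the member windows ran from 50% to 76%, against a median of 58.7% over all windows.

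Before the members, the labelled knockdown was checked on HSF1 itself, and its 2 probes did not settle it. ILMN_1667060 had a signal of 58.2 on the knockdown-labelled array and 164.3 on the control array. The raw signal was 2.82-fold lower. Read by signal alone in the main setting, the probe was lower by at least 2.36-fold. That bound takes 58.2 as background, since a PCK2 probe with 58.4 on the same array had a detection p of 0.236. In the authors' deposited processed table the difference was -1.09, smaller than this bound of 1.24 log2 units. The detection p values of the same probe, 0 and 0.00527 in that order, ran the other way, with the stronger detection on the dimmer array. ILMN_1665621 had signals of 81.3 and 77.9 in that order and was detected on neither array. Every direction below therefore rests on the labels. Signals had a median of 59.8 on the knockdown-labelled array and 61.5 on the control array, and 12200 and 11707 probes were detected on them. Of 9 hepatocyte marker genes, 8 were detected on each array, TTR on the knockdown-labelled array alone and FGB on the control array alone. Of the 7 hepatocyte markers on both, 2 were at least 2-fold lower and 0 higher, beside 10.4% and 9.89% of all genes. The median of the 7 was 0.12, with 5 above 0. AHSG had 899.8 on the knockdown-labelled array and 4602.2 on the control array, 4.7-fold lower, and APOB had 631.8 and 2566 in that order, 3.75-fold lower. In the main setting FGB was lower by at least 3.57-fold, while TTR was higher by at least 2.04-fold. These bounds hold for that setting alone. The raw signal ratios of FGB and TTR were smaller, at 3.31 and 1.82, and the authors' differences were -1.64 and 0.87. ALB was at 0.12 and TF at 0.81. Hepatocyte marker signals summed to 79912.8 on the knockdown-labelled array and 73026 on the control array. The array labelled HSF1 knockdown also had more signal from biliary and progenitor markers, where 3 of 5 genes were detected against 1 of 5, with summed signals of 3554.6 and 446.6 on the knockdown-labelled and control arrays. SOX9 and CD24 made up most of that sum, and KRT19 and KRT7 were detected on neither array. Myeloid markers summed to 1334.4 and 740 in the same order, with 3 of 4 and 1 of 4 detected and PTPRC on neither. LYZ, with 667.2 and 78, accounted for most of the gap, and CD68, the marker detected on both, was at -0.50. Fibroblast and endothelial markers were detected on neither array. The part of these shifts in the differences below was not tested.

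**Figure D1:**
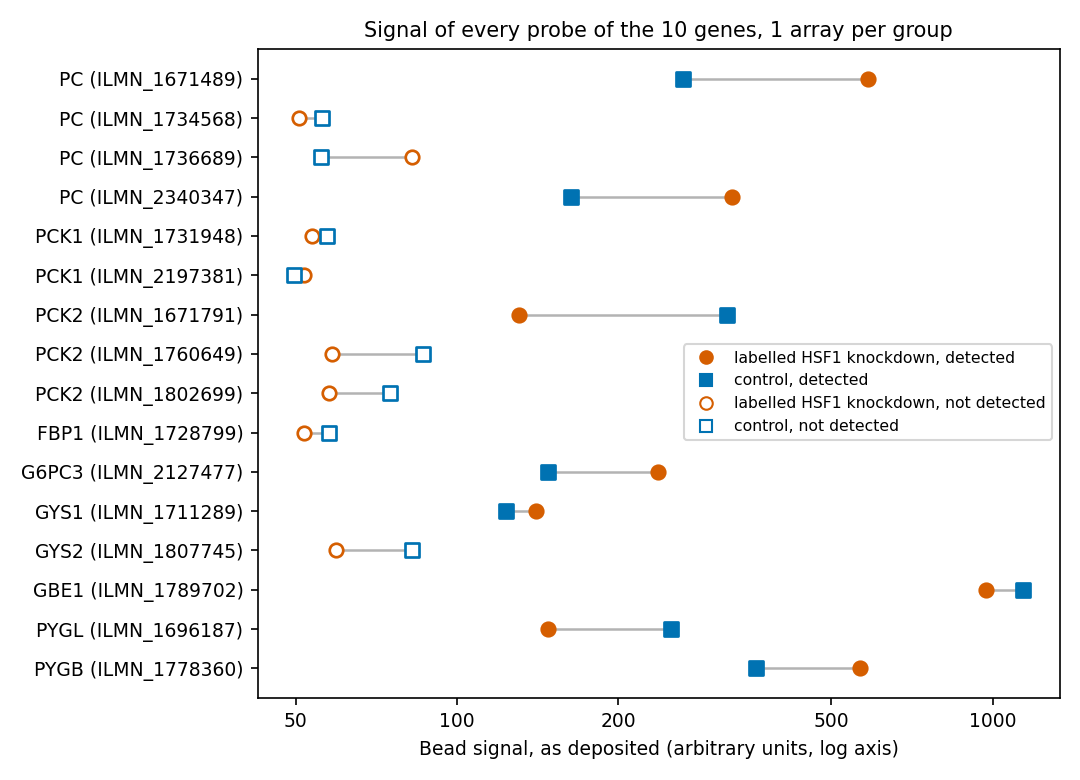
Bead signal of each of the 16 probes of the 10 genes on a log axis, with a circle for the array labelled HSF1 knockdown and a square for the control array, filled where the probe was detected. Both filled PC probes lie further right on the knockdown-labelled array, the filled PCK2 and PYGL probes lie further left there, and 8 probes are open on both arrays.

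PC was the 1 member called higher. Its brightest probe, ILMN_1671489, had a signal of 584.8 on the knockdown-labelled array and 263.9 on the control array. The normalized levels were 9.15 and 7.76 on the log2 scale, a difference of 1.39. A further PC probe, ILMN_2340347, had signals of 326.3 and 163.3 in the same order and a difference of 1.29, or 2.44-fold. These probes were designed on different RefSeq transcripts of PC, NM_000920 and NM_022172, and their differences lay 0.11 apart. For scale, the probe SD was 0.34: it is the error of 1 probe's difference, worked out from how far 2 probes of the same gene disagreed in 1577 genes. Differences between cultures are not in it. The other PC probes were detected on neither array: ILMN_1736689 had 82.5 on the knockdown-labelled array and 55.7 on the control array, and ILMN_1734568 had 50.7 and 55.9. Both detected PC probes were therefore higher in the knockdown-labelled sample by more than 2-fold.

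PCK2 was the 1 member called lower. The probe designed on NM_004563, ILMN_1671791, had a signal of 130.4 on the knockdown-labelled array and 318.9 on the control array. The normalized levels were 6.50 and 8.07, a difference of -1.57. The remaining PCK2 probes, both designed on NM_001018073, were not detected on either array. ILMN_1760649 had 58.4 on the knockdown-labelled array and 86.3 on the control array, and ILMN_1802699 had 57.7 and 74.8. Their control signals lay near the limit, with detection p values of 0.0198 and 0.0488, while on the knockdown-labelled array these were 0.236 and 0.257. All 3 PCK2 probes were dimmer on the knockdown-labelled array, but the call rests on 1 of them. The difference of PC and that of PCK2 lay 2.96 log2 units apart.

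PCK1, the cytosolic counterpart of PCK2 and a classic fasting-induced liver gene, gave no signal above background. Its probe ILMN_1731948 had 53.7 on the knockdown-labelled array and 57.1 on the control array, and ILMN_2197381 had 51.8 and 49.7. FBP1 was likewise not above background, with 51.9 and 57.6 in the same order. These values lie below the array medians, so no difference can be read for either gene.

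G6PC3, the widely expressed glucose phosphatase of the endoplasmic reticulum, lay just under the 2-fold line. Its probe had a signal of 237.7 on the knockdown-labelled array and 147.7 on the control array. The difference was 0.94, or 1.91-fold higher. The liver and islet phosphatases G6PC1 and G6PC2, which do the same reaction, and the muscle bisphosphatase FBP2 were detected on neither array. SLC37A4, the carrier that brings glucose phosphate to these enzymes inside the endoplasmic reticulum, had 864.5 and 1041.8 in the same order, a difference of -0.12. Of the 4 further gluconeogenesis genes listed, SLC37A4 was thus the 1 with a readable difference.

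Among the glycogen enzymes the phosphorylase forms differed in sign. PYGL, the liver form, had a signal of 147.8 on the knockdown-labelled array and 250.9 on the control array, a difference of -0.92, or 1.89-fold lower. PYGB had 566 on the knockdown-labelled array and 361.8 on the control array, a difference of 0.83, or 1.78-fold higher. Each gene has 1 probe and neither reached 2-fold. Their differences lay 1.75 log2 units apart, and the probe SD was 0.34 for each. That SD holds no spread between cultures, so it cannot say how far such a gap would vary. The muscle form PYGM was detected on neither array.

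The enzymes that build glycogen differed less. GYS1 had 140.7 on the knockdown-labelled array and 123.3 on the control array, a difference of 0.29, which is under the probe SD. GBE1 had 970.8 and 1140.7 in the same order, a difference of -0.08, also under that SD. GYS2 was not detected, with 59.4 on the knockdown-labelled array and 82.5 on the control array. Its control detection p was 0.0277, so it would pass a limit of 0.05 there and not on the knockdown-labelled array, where it was 0.204.

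Read as a set, 7 of the 10 members were detected on both arrays and 3 on neither, 1 was called higher and 1 lower. Among the 7511 genes with detection on both arrays, the share called higher was 9.89%, called lower 10.4% and called either way 20.3%, and 2 of 7 members called is not set apart from that share. The member median was 0.29, against -0.06 over all genes, with 4 members above 0 and 3 below. With no filter on detection, which adds the 3 undetected members, the member median was -0.06. The median size of the difference, either sign, was 0.92 for the 7 members and 0.50 for all genes. Placed among all genes, 6.38% had a difference at least as large as that of PCK2 in either direction, 9.2% as large as that of PC, 23.2% as large as that of G6PC3, 24.1% as PYGL and 28.2% as PYGB. For GYS1 and GBE1 these shares were 68.5% and 91.1%. Differences of the size of G6PC3, PYGL and PYGB were thus common on these arrays.

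**Figure D2:**
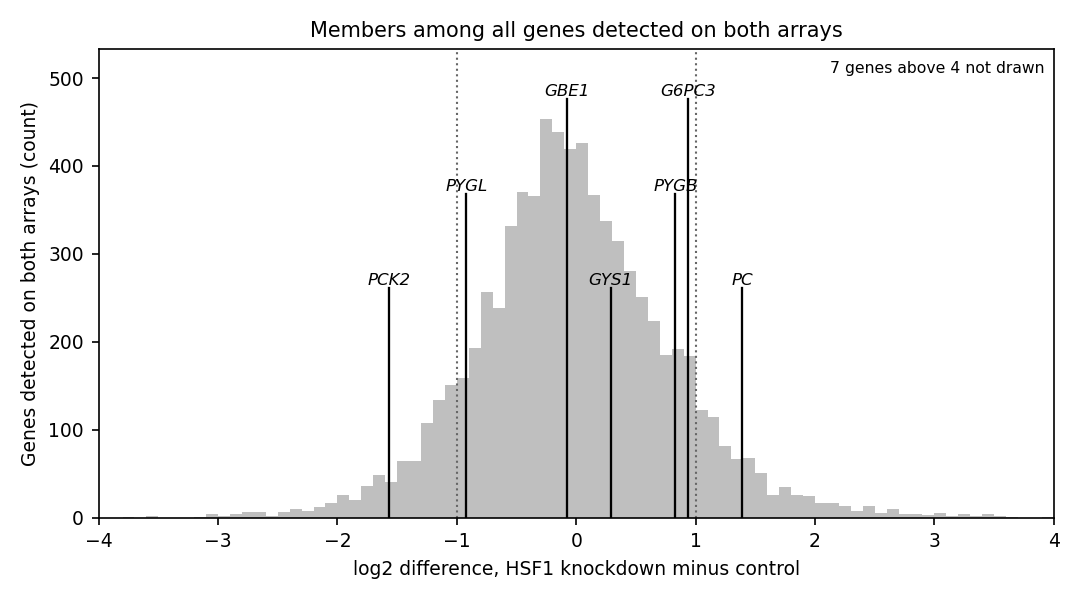
Histogram of the log2 difference, knockdown-labelled minus control, over 7511 genes detected on both arrays, with lines at the 7 detected members and dotted lines at 2-fold. PCK2 at -1.57 and PC at 1.39 lie outside the dotted lines, and the other 5 members lie inside; 7 genes above 4 are not drawn.

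The detected members lie on 6 chromosomes, and the genes next to the called members on the chromosome had medians near 0. Each member was set beside the 20 nearest genes detected on both arrays, 10 on either side. Over all genes, 9.89% were at least 2-fold higher and 10.4% lower. Around PCK2 on chromosome 14 the neighbours had a median difference of -0.08, and 0 of 20 were at least 2-fold lower and 1 higher. Around PC on chromosome 11 the median was 0.13, and 2 of 20 were at least 2-fold higher and 0 lower. Around PYGL, also on chromosome 14, it was -0.17 with 2 of 20 lower, and around PYGB on chromosome 20 it was 0.01 with 2 of 20 higher. Around G6PC3 on chromosome 17 the median was -0.02, with 5 of 20 higher and 2 lower. Around GYS1 on chromosome 19 it was -0.01, again with 5 higher and 2 lower, and around GBE1 on chromosome 3 it was 0.46, with 4 higher and 1 lower.

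All 7 detected members kept their sign under each of the 7 alternative ways of processing that were run. The looser detection limit, no filter and the mean over detected probes could not move a member with 1 detected probe. Among them only the mean moved PC, to 1.34. The other alternatives rescale the same 2 arrays. PC ranged from 1.23 to 1.39 and PCK2 from -1.57 to -1.22, both at 2-fold or more throughout, and the smallest value of each came from the authors' processed table. G6PC3 ranged from 0.72 to 0.98, PYGL from -0.92 to -0.71 and PYGB from 0.75 to 0.83, all under 2-fold throughout. GYS1 ranged from 0.19 to 0.39 and GBE1 from -0.16 to -0.08.

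**Figure D3:**
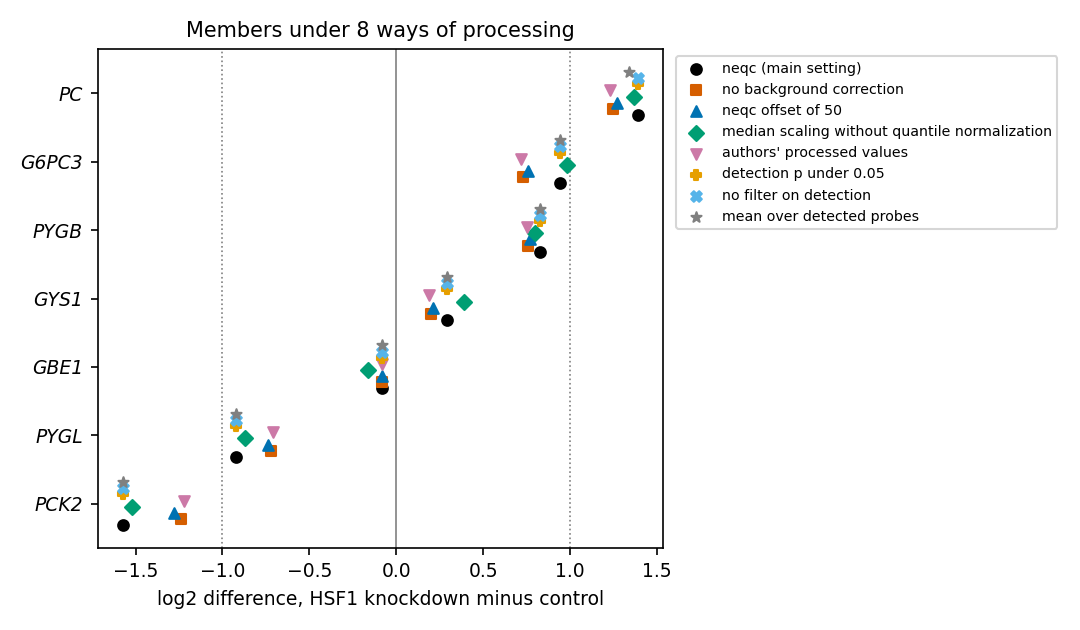
Log2 difference, knockdown-labelled minus control, of the 7 detected members under the main setting and 7 alternatives, 1 symbol per setting, with dotted lines at 2-fold. All symbols of PC lie right of the upper line and all of PCK2 left of the lower one, between -1.57 and -1.22, while G6PC3 comes as near as 0.98 to the line without crossing it.

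Other genes of glycogen metabolism were mixed as well. Of 25 listed, 22 had a probe and both arrays detected 12, of which 3 were at least 2-fold higher, 1 lower and 8 within 2-fold. Over all genes, 9.89% were called higher and 10.4% lower. The list median was -0.37, or 0.05 with no filter on detection. PPP1R3C, a subunit that brings protein phosphatase to glycogen and favours its synthesis, had signals of 1071.4 on the knockdown-labelled array and 330.4 on the control array, 3.91-fold higher. PGM1, which interconverts glucose phosphates at the entry to glycogen, had 2865.2 and 1412 in the same order, 2.38-fold higher. GSK3B, a kinase that inhibits glycogen synthase, had 1758.9 and 918.1, 2.22-fold higher. GYG1, the protein primer on which a glycogen particle starts, had 448.9 on the knockdown-labelled array and 1294.8 on the control array, 2.77-fold lower. Further phosphatase subunits of this family passed detection only on the array labelled HSF1 knockdown, PPP1R3F at least 1.97-fold and PPP1R3D at least 1.59-fold higher, as was the glycogen-binding protein gene STBD1, at least 1.40-fold higher. A bound of this kind sets the level on the detecting array against the lowest level that the other array could detect. It holds for the main setting alone, and the raw signal ratio or the authors' value can be smaller. The phosphorylase kinase subunits PHKA1, PHKA2 and PHKB lay at -0.45, -0.51 and -0.45, and PHKG2 at 0.71.

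The steps that gluconeogenesis shares with glycolysis lay within 2-fold apart from 1 gene. Both arrays detected 9, of which 1 was at least 2-fold higher, 0 lower and 8 within 2-fold, beside 20.3% of all genes called either way. The list median was 0.06, or -0.07 under median scaling. ENO3, the muscle form of enolase, had 1742.4 on the knockdown-labelled array and 215 on the control array, 10.8-fold higher. By the brightest probe of each gene, the 8 within 2-fold ran from -0.39 for TPI1, triose phosphate isomerase, to 0.58 for PGK1, phosphoglycerate kinase. GAPDH was at 0.08. Further probes detected on both arrays differed, with PGK1 at -0.01 by ILMN_2216852 and ALDOA, an aldolase gene, at 0.71 by ILMN_1736700.

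The irreversible steps of glycolysis and their regulators, which run against gluconeogenesis, showed large differences both ways. All 6 genes that both arrays detected were called, 4 higher and 2 lower, beside 20.3% of all genes called either way. The 4 largest included PFKM, muscle phosphofructokinase, at -2.07 and PFKFB3, whose product makes the activator of that enzyme, at 1.98. They also included the hexokinase gene HK2 at -1.74 and the pyruvate kinase gene PKM at 1.70. A further PFKFB3 probe detected on both arrays, ILMN_1660847, was at 1.26. Liver phosphofructokinase, PFKL, passed detection on the control array alone. In the main setting it was lower by at least 2.92-fold in the knockdown-labelled sample. Its raw signal ratio was 2.6 and the authors' difference was -1.32. PFKP passed only in the knockdown-labelled sample, higher by at least 1.05-fold. The median of 1.55 over the 6 genes depended on the detection limit, and was -0.09 at a detection p under 0.05.

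Genes that move pyruvate, malate and aspartate, which feed PC and carry its product out of mitochondria, differed both ways. Both arrays detected 13, of which 3 were at least 2-fold lower, 1 higher and 9 within 2-fold, beside 20.3% of all genes called either way. Of the 13, 10 lay below 0, with a median of -0.30, against 4001 of 7511 below 0 and a median of -0.06 over all genes. Several of the 10, GOT1 at -0.05 among them, lay within the probe SD. LDHB, the lactate dehydrogenase subunit of heart type, had 383 on the knockdown-labelled array and 1949.2 on the control array, 4.97-fold lower. The dicarboxylate carrier SLC25A10 was 2.39-fold lower and the aspartate and glutamate carrier SLC25A13 2.30-fold lower. Its relative SLC25A12 passed detection on the control array alone and was lower by at least 1.5-fold in the knockdown-labelled sample. PDK3, a kinase that turns off pyruvate dehydrogenase and so spares pyruvate, had 591.3 and 170.6 on the knockdown-labelled and control arrays, 4.49-fold higher. The alanine aminotransferase gene GPT was detected on the knockdown-labelled array alone, at least 1.42-fold higher.

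Among known regulators of gluconeogenesis, both arrays detected 14, of which 2 were higher by 2-fold or more, 0 lower and 12 within 2-fold. Over all genes, 9.89% were called higher and 10.4% lower. The regulator median was 0.57, or 0.36 with the mean over detected probes and 0.26 with no filter on detection. Of the 14, 8 lay above 0 and 6 below, the latter including MLXIPL at -0.88, CEBPA at -0.81 and CEBPB at -0.68. FOXO1, which drives gluconeogenic genes when insulin is low, had 775.1 on the knockdown-labelled array and 340 on the control array, 2.71-fold higher. FOXO3, a factor of the same family, had 1215.9 and 615.4 in the same order, 2.28-fold higher. PPARGC1A, a coactivator of FOXO1 in fasting liver, was detected on the knockdown-labelled array alone, with 141.4 against 56.9 on the control array, at least 1.78-fold higher. The cofactor gene CRTC2 and the glucocorticoid receptor gene NR3C1 were also detected there alone. In the main setting they were at least 1.24-fold and 1.51-fold higher, and the raw signal ratio of NR3C1 was 1.45. PCK1 and G6PC1, well-known targets of these factors, were detected on neither array. Of the receptors and carriers listed, the glucose carrier SLC2A1 was 3.29-fold higher, with 1054.9 on the knockdown-labelled array and 381.5 on the control array. The liver glucose carrier SLC2A2 and the insulin receptor substrate IRS1 passed detection on the control array alone. SLC2A2 had 90 on the knockdown-labelled array and 182.1 on the control array, and IRS1 had 90.6 and 174.1 in that order. Both narrowly missed detection on the knockdown-labelled array, each with a detection p of 0.0105. The main setting put them lower by at least 2.68-fold and 2.54-fold. Their raw signal ratios were 2.02 and 1.92, and the authors' differences were -0.97 and -0.90.

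**Figure D4:**
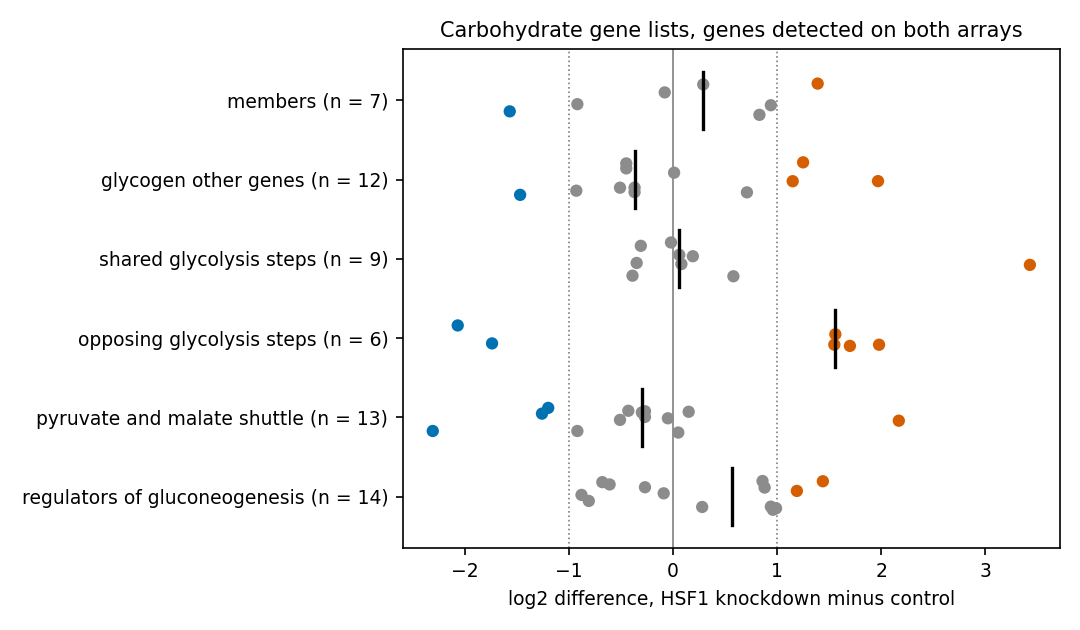
Log2 difference, knockdown-labelled minus control, of each gene detected on both arrays, for the members and 5 other lists of carbohydrate genes. Orange points are at least 2-fold higher, blue points at least 2-fold lower, grey points within 2-fold, and the black bar is the list median, which is 0.29 for the members and -0.37 for the other glycogen genes (-0.06 and 0.05 with no filter on detection).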

How the data were processed

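Total RNA of 2 KYN2 samples, 1 per group by their labels, was measured on 1 array each. The deposited signals are bead intensity values; per the file headers they are not normalized, and no background step is recorded. Beside each signal the authors deposited a fraction between 0 and 1, headed as a detection p. It grows with the signal, so 1 minus this fraction was used as p. A second deposited table, processed by the authors, holds log2 values centred near 0, with column medians of -0.00275 (knockdown) and 0.00222 (control) and an unknown baseline. Its differences tracked the raw log2 ratios across probes (slope 0.981, r = 0.996), which settles scale and direction. The scanner is not given in the sources used here.

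Background correction and quantile normalization used the neqc function (limma 3.58.1, R 4.3.3) with an offset of 16. The offset understates folds of dim genes. Gene names came from the platform's 2016 annotation: 27577 probes had 1 symbol, 13 had several and 21212 had none, and 0 symbols changed through the GRCh38.p14 gene table. The probe with the highest mean level stood for its gene. Every probe of the 10 members was reported, and in each of 7 pathway lists all called genes, or the 4 with the largest difference, and those detected on 1 array. Further TPI1, PGK1, GAPDH, ALDOA, GOT1, MLXIPL, CEBPA, CEBPB and phosphorylase kinase values were named after they were seen. The members and lists were chosen with earlier results of these data known. The number of arrays limits the precision. The procedure was run on simulated data in which only bright genes carried known folds. That run does not cover PC, PCK2, G6PC3, PYGL and GYS1, whose control signals lay below the range that was given folds. The 7 alternatives were no background correction, an offset of 50, median scaling, the authors' values, a detection p under 0.05, no detection filter and the mean over detected probes.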

Additional observations from a re-analysis of the deposited data

How the results depend on the processing

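Of 364 values recomputed under the 7 alternatives, 348 stayed close to the main value (counts within 1.5 times, differences within the probe SD of 0.34). A further 13 moved more and 3 reversed from a value of 2-fold or more. Part of this closeness was fixed in advance, since the detection settings cannot change the difference of a gene already detected on both arrays. Of 63 recomputed medians, 8 had the other sign, over 6 lists. PC stayed the 1 member at least 2-fold higher and PCK2 the 1 at least 2-fold lower under all 7. With no filter on detection, which adds the 3 undetected members at background, the member median was -0.06, and the number of all genes at least 2-fold higher was 1220. PCK2 was at -1.22 in the authors' values. The median of the opposing glycolysis steps was -0.09 at a detection p under 0.05, and that of the receptors and carriers was -0.48 there and -0.33 with no filter, both above 0 in the main setting, as dim genes entered these short lists. With no filter the medians of the other glycogen and other gluconeogenesis genes were both 0.05, against -0.37 and -0.12, and that of the shared steps was -0.07 under median scaling and -0.02 with the mean over probes. No paired analysis was possible because each group has 1 array, and leaving out an array leaves no comparison. Signal over background limits PCK1, FBP1, GYS2 and 2 probes each of PC and PCK2.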
